A study of Vitis vinifera with 54 samples.

Results

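Hexokinases (HK) and fructokinases (FK) are the enzymes that phosphorylate free hexoses with ATP. Hexokinase accepts glucose and also fructose, and in Arabidopsis one hexokinase is known as a glucose sensor as well, whereas fructokinase is largely specific for fructose and yields fructose 6-phosphate. In the grape berry, sucrose arrives through the phloem, is split into glucose and fructose, and both hexoses are stored in the vacuoles of the flesh during ripening. Phosphorylation is the step by which a hexose leaves this free pool for glycolysis or for the resynthesis of sucrose.

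The 7 genes described here are 3 hexokinase and 4 fructokinase genes, of the 25133 genes in the deposited expression values. The hexokinase genes are LOC100242358 (Gene ID 100242358), LOC100263580 (Gene ID 100263580) and LOC100241187 (Gene ID 100241187). The fructokinase genes are LOC100243946 (Gene ID 100243946), LOC100259720 (Gene ID 100259720), LOC100245726 (Gene ID 100245726) and LOC100247573 (Gene ID 100247573). They were chosen by NCBI Gene number from the sugar pathway that the study drew, which is also the only source of their class, because neither the expression values nor the RefSeq gene table used here (assembly ASM3070453v1) names their products. The study took the genes of that pathway from co-expression modules picked in these same libraries for their relation with soluble sugars. The direction of a stage change in these genes is therefore not independent evidence.

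Flesh of Vitis vinifera L. Chardonnay berries, freed of skin and seeds, was sequenced at 40 DAP (enlargement, E), 80 DAP (color transition, V) and 120 DAP (maturity, M) in 6 ecological zones of Ningxia, named HJZ, ZHYS, CC, XG, XLS and HSB. Each of the 18 groups, written as stage and zone (E-HJZ), had 3 biological replicates of 15 fruits each, which gave 54 libraries without any treatment. Values are TPM, a transcript abundance that accounts for gene length and is scaled to 1 total in every library, so levels of different genes can be set side by side. In bulk flesh, fewer cells of a type and less RNA per cell cannot be told apart. A zone, its vineyards and their management cannot be told apart.

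The libraries differed in composition, and those of V-XLS differed among themselves. The 100 most abundant genes of a library held from 27.6% to 63.8% of its TPM, with averages of 61.4% for E-HJZ against 29.1% for E-HSB, and such a share shifts the TPM of every remaining gene. Median-of-ratios factors, computed from 16546 genes above 0 in every library, ran from 0.644 to 1.45, with group means of 0.695 in E-HJZ and 1.44 in E-HSB. By rank correlation with the mean of each group (a library left out of its own mean), 51 of the 54 libraries were closest to their own group. The exceptions were the V-XLS libraries, of which replicates 1 and 3 were closest to M-XLS and replicate 2 to V-XG, so the XLS changes that lean on replicate 2, the one apart from the other two, are also given without that library. The ripening marker GRIP4 lay between 10.9 and 265 TPM at E and between 45600 and 67400 TPM at M, and of the skin markers UFGT was at most 2.09 TPM in every group while MybA1 reached 710 TPM at V. Of the seed markers, LAR1 was at most 4.48 TPM, ANR lay between 2.87 and 52.4 TPM and MYBPA1 between 9.58 and 104 TPM over the groups.

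All 7 genes were above 0 in all 54 libraries, but at very different levels. LOC100242358 had a mean of 110.0 TPM over the libraries, above 94.6% of the genes, and LOC100243946 had 88.6 TPM, above 93.2% of the genes. The other 5 genes had means between 2.23 and 8.92 TPM. One of the 3 hexokinase and one of the 4 fructokinase genes therefore held most of the TPM summed over these genes, a sum that leaves out genes of either class outside the 7. LOC100242358 held from 78.0% to 92.5% of the summed hexokinase TPM in every library, with stage means of 86.6% at E, 88.8% at V and 88.5% at M. LOC100243946 held 60.3% ± 6.09 of the summed fructokinase TPM at E, 90.9% ± 4.12 at V and 93.3% ± 1.67 at M (SD, n = 18 libraries of the stage). At E the remainder of the fructokinase transcript was mainly LOC100247573, with 20.7% ± 3.97, and LOC100259720, with 11.1% ± 2.10.

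**Figure D1:**
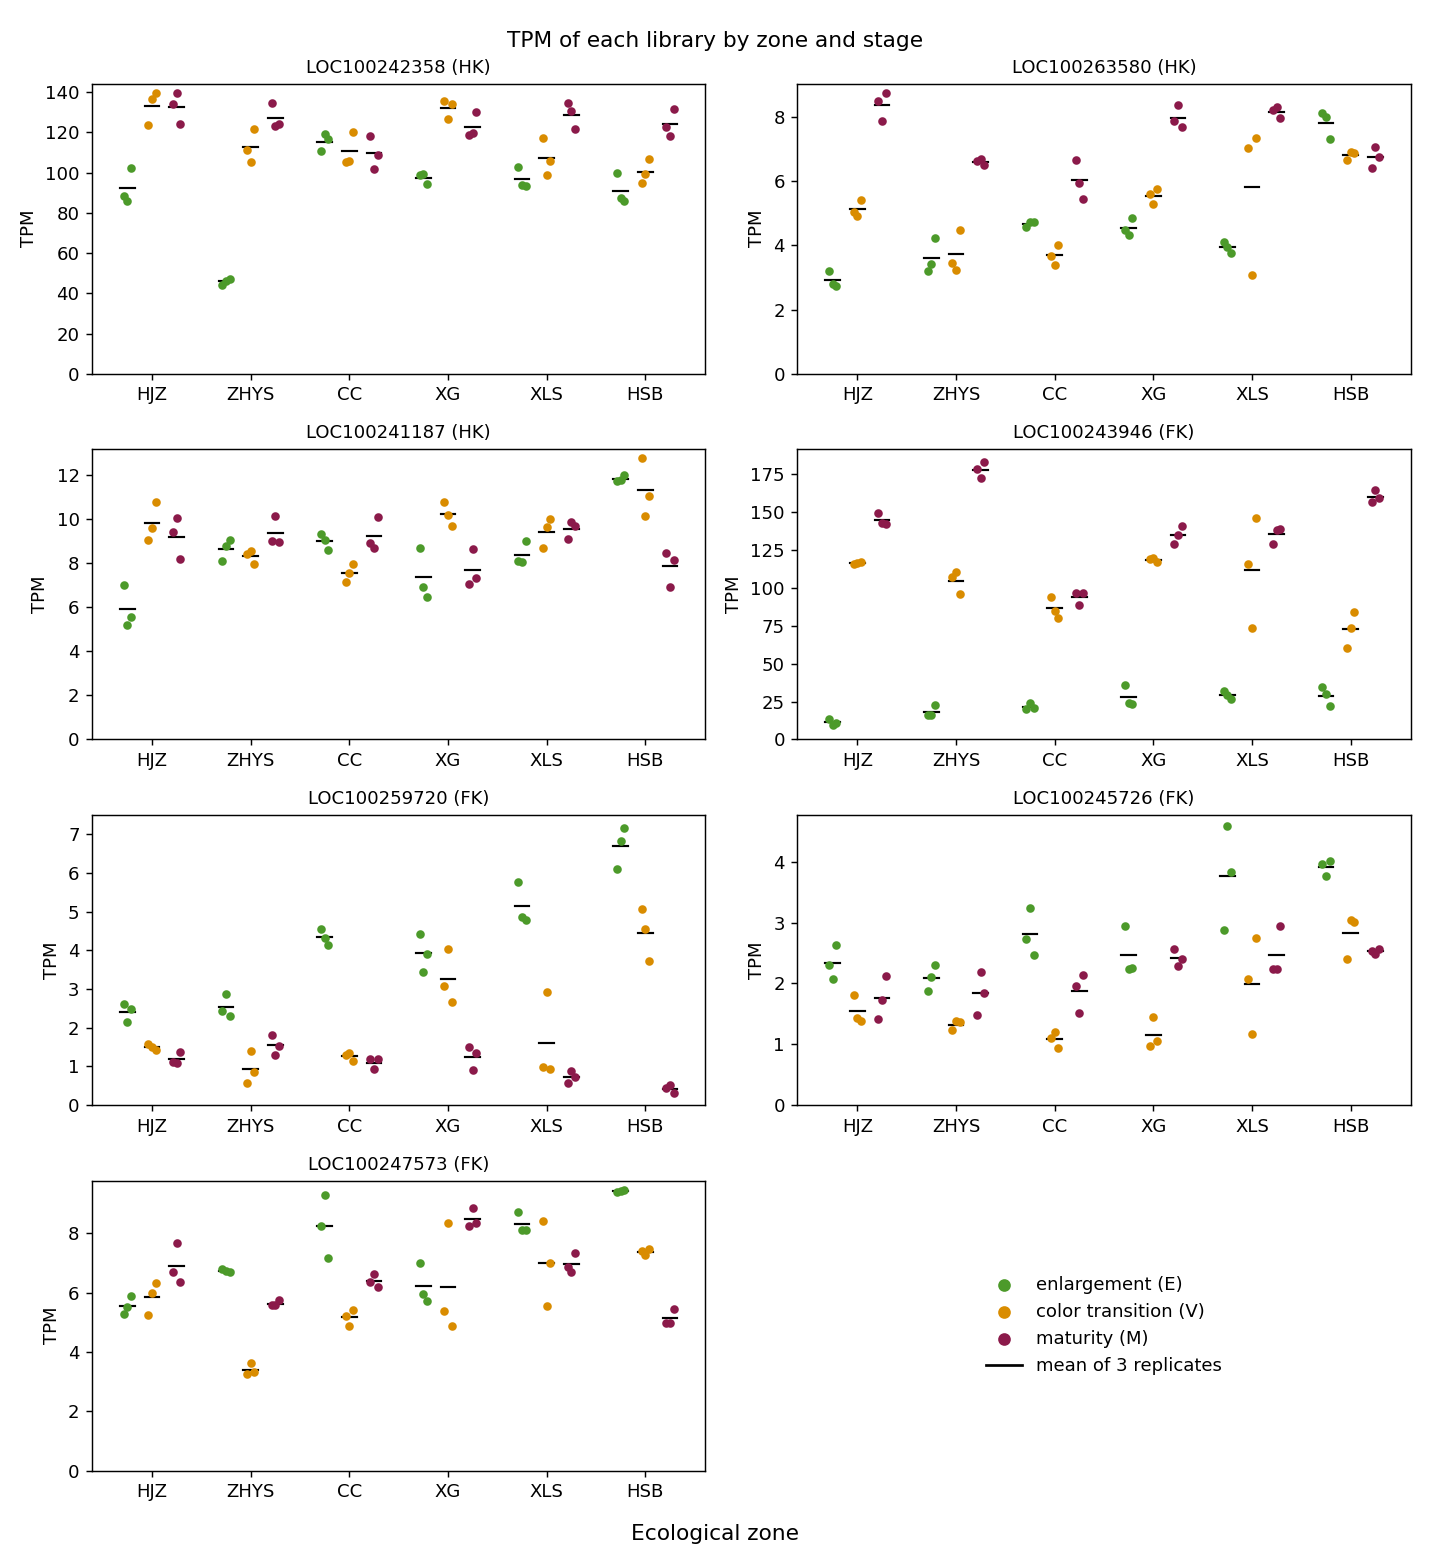
TPM (vertical axis, from 0) of each of the 54 libraries for the 7 genes, by ecological zone (horizontal axis) and stage (color); points are libraries and lines are means of 3 replicates. LOC100243946 lies between 9.37 and 35.92 TPM in the E libraries and between 60.03 and 182.87 TPM in the V and M libraries.

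LOC100243946, the abundant fructokinase gene, had the largest change of the 7 in both comparisons that start at E. In HJZ its replicates had 13.43, 9.37 and 11.11 TPM at E, 115.74, 116.3 and 117.01 TPM at V, and 149.52, 142.82 and 142.17 TPM at M. In ZHYS they had 16.38, 16.04 and 22.81 TPM at E, 107.42, 110.77 and 96.09 TPM at V, and 178.22, 172.72 and 182.87 TPM at M. In CC they had 20.35, 23.9 and 20.45 TPM at E, 94.25, 85.04 and 79.98 TPM at V, and 96.73, 88.57 and 96.62 TPM at M. The E replicates were far below the others in these zones, and V and M overlapped in CC alone. In XG the replicates had 35.92, 24.27 and 23.34 TPM at E, 119.41, 119.62 and 117.13 TPM at V, and 128.69, 134.79 and 140.9 TPM at M. In XLS they had 32.02, 29.59 and 26.77 TPM at E, 115.8, 73.54 and 146.1 TPM at V, and 128.83, 138.55 and 138.72 TPM at M. In HSB they had 34.63, 29.79 and 22.25 TPM at E, 60.03, 73.76 and 84.24 TPM at V, and 156.89, 164.48 and 159.32 TPM at M. In every zone all 3 V replicates were above all 3 E replicates, and HSB had the lowest V mean (72.68 TPM).

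The mean over the zones of LOC100243946 was 22.9 ± 7.21 TPM at E, 102 ± 18.4 at V and 141 ± 28.4 at M (SD, n = 6 zones), which is 4.44 times as high at V as at E and 1.39 times as high at M as at V. By limma on log2(TPM + 1), this corresponded to a difference of 2.15 (SE 0.07, adjusted p = 3.08e-28) from E to V, 0.47 (SE 0.07, adjusted p = 4.14e-08) from V to M and 2.63 (SE 0.07, adjusted p = 1.87e-31) from E to M. The V to M rise differed between zones after median-of-ratios scaling. Scaled V and M means of LOC100243946 were 56.09 and 179.03 in HSB and 118.91 and 166.32 in ZHYS. They were 117.56 and 126.92 in HJZ, 107.41 and 117.66 in XLS, 119.79 and 117.88 in XG, and 111.49 and 104.56 in CC. Its highest group, M-ZHYS with 177.94 TPM, was 15.7 times as high as its lowest, E-HJZ with 11.30 TPM. Over the 18 group means it spanned 3.86 log2 units, more than 89.6% of the 14701 genes that reached 5 TPM in some group. Ordered by mean, its groups fell into the 5 M groups M-ZHYS, M-HSB, M-HJZ, M-XLS and M-XG, then the V groups together with M-CC, then the 6 E groups. In 10 of the 17 pairs of neighbours in this order the replicates overlapped, and the gap between V-HSB (72.68 TPM) and E-XLS (29.46 TPM) was among the 7 without overlap.

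LOC100242358, the abundant hexokinase gene, changed less, and in TPM mainly in some zones. In HJZ its replicates had 88.38, 85.86 and 102.4 TPM at E, 123.91, 136.6 and 139.53 TPM at V, and 133.93, 139.51 and 124.16 TPM at M. In ZHYS they had 44.28, 46.33 and 47.11 TPM at E, 111.29, 105.53 and 121.61 TPM at V, and 134.71, 123.16 and 124.19 TPM at M. In CC they had 110.73, 119.18 and 116.6 TPM at E, 105.47, 106.06 and 120.37 TPM at V, and 118.46, 101.64 and 108.62 TPM at M. The CC replicates of all stages overlapped, while in HJZ and ZHYS every E replicate was below every V replicate. In XG the replicates had 98.77, 99.43 and 94.16 TPM at E, 135.59, 126.6 and 134.27 TPM at V, and 118.91, 119.69 and 130.32 TPM at M. In XLS they had 102.83, 94.06 and 93.34 TPM at E, 117.15, 99.1 and 105.67 TPM at V, and 134.61, 130.54 and 121.54 TPM at M. In HSB they had 99.75, 87.28 and 85.96 TPM at E, 94.67, 99.6 and 106.97 TPM at V, and 122.84, 118.41 and 131.72 TPM at M. E and V overlapped in XLS and HSB, and the M replicates were above both.

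The mean over the zones of LOC100242358 was 89.8, 116 and 124 TPM at the 3 stages, and the spread of the 6 zone means fell from a coefficient of variation of 25.9% at E to 11.7% at V and 6.41% at M. The log2 fold change was 0.41 (SE 0.03, adjusted p = 1.24e-15, limma) from E to V and 0.10 (SE 0.03, adjusted p = 0.00286) from V to M. After quantile normalization the E to V value was 0.18 (adjusted p = 2.41e-07), and that from E to M went from 0.51 to 0.20 (adjusted p = 1.59e-08). The V to M value was 0.01 after median-of-ratios scaling (adjusted p = 0.72) and 0.06 without HSB (adjusted p = 0.0977), so that call depended on scaling and on 1 zone. In the order of its 18 groups, 16 of 17 neighbour pairs overlapped. The exception was the lowest group, E-ZHYS at 45.91 TPM, below E-HSB at 91.00 TPM.

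LOC100263580 and LOC100241187, the less abundant hexokinase genes, had 2.73 to 8.74 TPM and 5.17 to 12.78 TPM over the libraries. LOC100263580 had a mean over the zones of 4.58 ± 1.71 TPM at E, 5.12 ± 1.23 at V and 7.32 ± 0.976 at M (SD, n = 6 zones). It rose by 0.14 (SE 0.05, adjusted p = 0.0169) on the log2 scale from E to V and by 0.47 (SE 0.05, adjusted p = 8.71e-10) from V to M, and after quantile normalization these values were 0.37 (adjusted p = 6.17e-09) and 0.46. Its E-HSB replicates, at 8.11, 8.01 and 7.31 TPM, were above those of every other E group. After median-of-ratios scaling the E-HSB mean was 5.42 ± 0.32, close to that of E-XG at 4.79 ± 0.62 (SD, n = 3). LOC100241187 was the flattest of the 7 genes, with 8.51 ± 1.97, 9.44 ± 1.35 and 8.81 ± 0.823 TPM at the 3 stages. Its span of 0.89 log2 units over the 18 groups exceeded that of 2.58% of the 14701 genes compared, and all 17 pairs of neighbouring groups overlapped. It rose by 0.15 (SE 0.04, adjusted p = 0.000633) from E to V, which was 0.29 after quantile normalization, and its E to M value of 0.07 (SE 0.04, adjusted p = 0.112) did not pass the test but was 0.19 (adjusted p = 0.000127) without HSB. Its V to M value of -0.08 (SE 0.04, adjusted p = 0.0567) did not pass either, and it was -0.16 (adjusted p = 0.000314) after median-of-ratios scaling.

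LOC100259720, a fructokinase gene of low level, went the opposite way to LOC100243946. Its replicates had 2.6, 2.14 and 2.48 TPM in E-HJZ, 1.57, 1.49 and 1.42 TPM in V-HJZ, and 1.11, 1.09 and 1.36 TPM in M-HJZ. In ZHYS they had 2.43, 2.88 and 2.31 TPM at E, 0.56, 1.4 and 0.86 TPM at V, and 1.8, 1.29 and 1.53 TPM at M. In CC they had 4.56, 4.31 and 4.13 TPM at E, 1.3, 1.35 and 1.14 TPM at V, and 1.19, 0.92 and 1.18 TPM at M. In these zones every E replicate was above every V and M replicate. In XG the replicates had 4.43, 3.44 and 3.91 TPM at E, 3.07, 4.04 and 2.67 TPM at V, and 1.49, 0.9 and 1.35 TPM at M. In XLS they had 5.77, 4.87 and 4.78 TPM at E, 0.99, 2.91 and 0.92 TPM at V, and 0.57, 0.88 and 0.73 TPM at M. In HSB they had 6.11, 6.83 and 7.16 TPM at E, 5.07, 4.55 and 3.73 TPM at V, and 0.44, 0.51 and 0.32 TPM at M. HSB thus held the highest E, the highest V and the lowest M group of this gene, and E-HSB at 6.70 TPM was 15.8 times as high as M-HSB at 0.42 TPM. After median-of-ratios scaling HSB kept these places, but E-HSB (4.65 ± 0.39) was then close to E-XLS (4.41 ± 0.21). V-HSB (3.44 ± 0.53) was likewise close to V-XG (3.28 ± 0.62, SD, n = 3), and M-HSB was at 0.47 ± 0.12.

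The mean over the zones of LOC100259720 was 4.17 ± 1.62 TPM at E, 2.17 ± 1.38 at V and 1.04 ± 0.399 at M (SD, n = 6 zones). On the log2(TPM + 1) scale, which understates changes at such levels, it fell by 0.77 (SE 0.07, adjusted p = 1.46e-13, limma) from E to V, by 0.54 (SE 0.07, adjusted p = 2.88e-09) from V to M and by 1.31 (SE 0.07, adjusted p = 4.53e-21) from E to M. Its V to M value was -0.27 (adjusted p = 0.00296) without HSB. LOC100245726 and LOC100247573, the remaining fructokinase genes, were lowest at V. LOC100245726 had 2.90 ± 0.767, 1.65 ± 0.66 and 2.15 ± 0.36 TPM at the 3 stages and LOC100247573 had 7.42 ± 1.47, 5.83 ± 1.43 and 6.59 ± 1.18 TPM. From E to V LOC100245726 fell by 0.57 (SE 0.06, adjusted p = 6.74e-12) and LOC100247573 by 0.32 (SE 0.04, adjusted p = 2.65e-08). From V to M they rose by 0.28 (SE 0.06, adjusted p = 4.47e-05) and 0.18 (SE 0.04, adjusted p = 0.000663). After quantile normalization the E to V values were -0.31 and -0.15, still called, and the V to M value of LOC100247573 was 0.10 after median-of-ratios scaling and 0.30 without HSB. Their E to M changes of -0.29 and -0.14 passed the test in TPM but were 0.00 and 0.02 after quantile normalization, and that of LOC100247573 was -0.02 (adjusted p = 0.737) without HSB.

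Counted at an adjusted p below 0.05 in the mean over the zones, 4 of the 7 rose and 3 fell between E and V, where 30.8% of the 24648 genes tested rose and 42.4% fell. From V to M 5 rose and 1 fell, where 35.0% of all genes rose and 28.4% fell. After scaling, that step again held 6 calls, with LOC100241187 in place of LOC100242358. From E to M 3 rose and 3 fell, where 38.1% rose and 42.1% fell. Most genes of the berry passed at this threshold, so a call by itself did not set these 7 genes apart. With the fold limit of the study, an absolute log2 fold change above 1, only LOC100243946 remained from E to V, where 6.0% of all genes rose and 7.51% fell. Under the same limit none of the 7 genes remained from V to M, where 1.72% rose and 1.85% fell. This limit was set on log2(TPM + 1), and LOC100259720, at 0.478 times its V level at M, had -0.54 on that scale and -0.85 with a pseudocount of 0.1. From E to M LOC100243946 rose and LOC100259720 fell, where 10.2% rose and 11.6% fell. The median log2 fold change of the 7 genes was 0.14, 0.18 and 0.07 in the 3 comparisons, against -0.02, 0.005 and -0.008 over all genes.

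These standard errors come from the spread between replicates within groups and not from the spread between zones. With the 6 zones as the units, LOC100243946 (adjusted p = 0.00012) and LOC100245726 (adjusted p = 0.00832) alone passed from E to V, where 29.3% of all genes passed in either direction. From V to M none of the 7 passed by limma, 1 of them had an unadjusted p below 0.05, and 0.799% of all genes passed. From E to M 4 of the 7 passed in that fit, against 48.0% of all genes, namely LOC100242358 (adjusted p = 0.0227), LOC100263580 (adjusted p = 0.0142), LOC100243946 (adjusted p = 1.3e-05) and LOC100259720 (adjusted p = 0.00208).

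**Figure D2:**
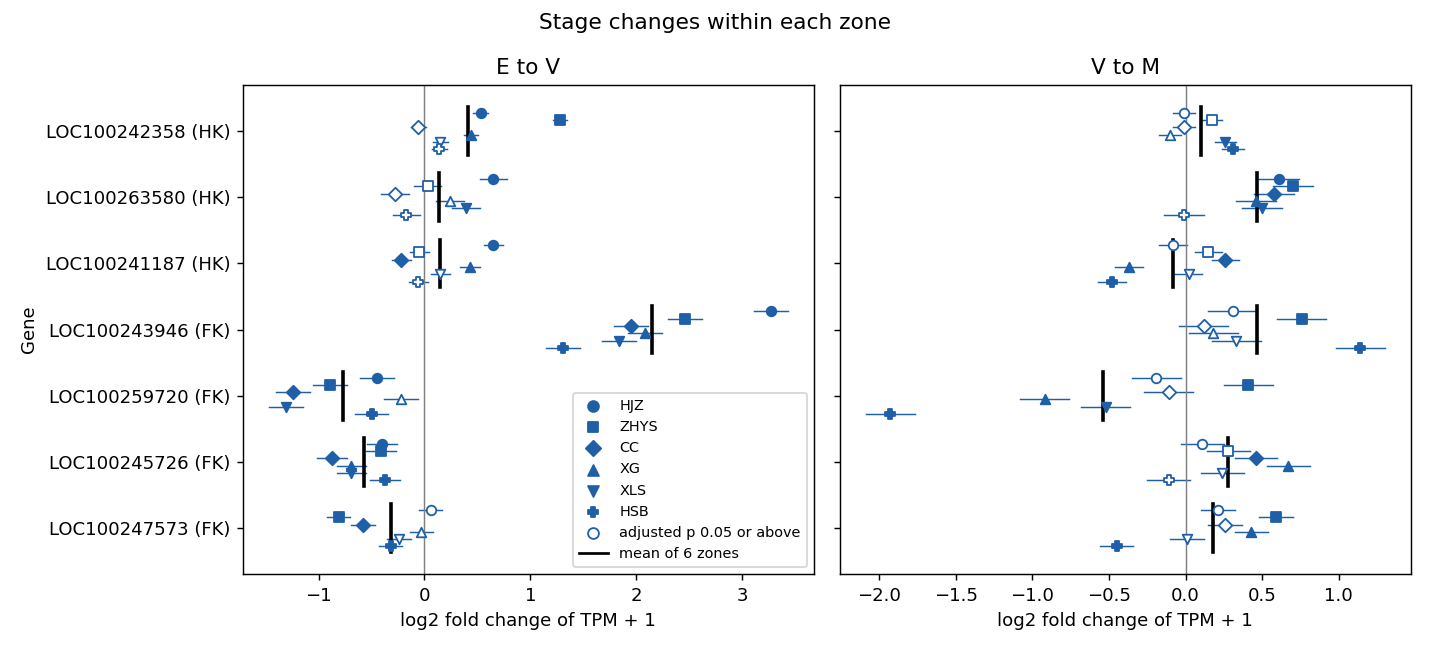
Log2 fold change of TPM + 1 (horizontal axis) from E to V and from V to M for each gene (vertical axis); symbols are zones with their SE, filled where the limma adjusted p was below 0.05, and the black bar is the mean of the 6 zones. LOC100243946 lies between 1.31 and 3.27 from E to V in all 6 zones.

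Within single zones, the E to V step was called for 58.1% of all genes in HJZ, 56.2% in ZHYS, 62.3% in CC, 53.1% in XG, 58.7% in XLS and 34.9% in HSB. LOC100243946 rose in all 6 zones, by 3.27 in HJZ, 2.46 in ZHYS, 2.08 in XG, 1.95 in CC, 1.84 in XLS and 1.31 in HSB (SE 0.16 each, log2 scale). LOC100245726 fell in all 6 zones, by 0.37 to 0.87 (SE 0.14), although its calls in HJZ and HSB were lost without single libraries (weakest adjusted p = 0.0664 in HJZ without E-HJZ replicate 3 and 0.152 in HSB without V-HSB replicate 1). After quantile normalization its values in ZHYS, CC and XLS were -0.17, -0.22 and -0.19 and no longer called, and neither was that of HSB after median-of-ratios scaling (-0.23), which gave -0.77 in HJZ and -0.51 in CC. LOC100259720 fell in HJZ, ZHYS, CC, XLS and HSB, by 0.45 to 1.31 (SE 0.16), and its change of -0.22 in XG was not called (adjusted p = 0.281). Its values in CC and XLS, -1.24 and -1.31, were -0.56 and -0.81 after quantile normalization, and that of HJZ was -0.83 after median-of-ratios scaling. Its HJZ call was lost without E-HJZ replicate 1 (adjusted p = 0.0566), and its HSB call without replicate 3 of E-HSB or of V-HSB and after scaling (-0.35, adjusted p = 0.14). LOC100247573 fell in ZHYS by 0.81, in CC by 0.58 and in HSB by 0.32 (SE 0.11), but its CC value was -0.08 after median-of-ratios scaling and 0.07 after quantile normalization, and its HSB call was lost after scaling (-0.17) and without E-HSB replicate 3 or V-HSB replicate 2 (adjusted p = 0.0505 and 0.054).

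The hexokinase genes were called from E to V in 3, 2 and 3 of the zones. LOC100242358 rose in ZHYS by 1.28, in HJZ by 0.53 and in XG by 0.44 (SE 0.07). Its HJZ value was 0.02 after median-of-ratios scaling, and after quantile normalization the HJZ value was -0.16, that of ZHYS 0.79 and that of XG 0.19. In CC its TPM value of -0.06 was not called, but its scaled means were 99.94 ± 5.57 at E and 142.62 ± 9.69 at V (SD, n = 3). Scaled means went from 83.12 to 105.48 in XLS and from 63.1 to 77.53 in HSB, so the zones with a rise depended on scaling. LOC100263580 rose in HJZ by 0.65 (0.25 after median-of-ratios scaling, adjusted p = 0.0533) and in XLS by 0.39 (SE 0.13), the latter 0.86 after quantile normalization. LOC100241187 rose in HJZ by 0.65 (0.20 after scaling, adjusted p = 0.0637) and in XG by 0.43 (SE 0.09). It fell in CC by 0.22, where scaling gave 0.29 and quantile normalization 0.40, and where the call was lost without replicate 1 or 2 of E-CC or of V-CC (adjusted p up to 0.133). In CC the median of all genes fell by 0.23 from E to V in TPM and was 0 after scaling, which follows from how the factors are computed.

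The V to M step was called for 26.0% of all genes in HJZ, 45.2% in ZHYS, 28.2% in CC, 51.9% in XG, 23.9% in XLS and 63.6% in HSB. LOC100263580 rose in HJZ, ZHYS, CC, XG and XLS by 0.46 to 0.70 (SE 0.13), and its change in HSB was -0.01. After median-of-ratios scaling, however, its means in HSB were 5.26 ± 0.09 at V and 7.54 ± 0.49 at M (SD, n = 3). LOC100243946 rose in HSB by 1.14 and in ZHYS by 0.76 (SE 0.16), the latter 0.48 after median-of-ratios scaling, and its values of 0.12 to 0.33 in the other zones were not called. LOC100259720 fell in HSB by 1.93 (-1.19 after quantile normalization), in XG by 0.92 and in XLS by 0.52 (SE 0.16), and it rose in ZHYS by 0.41 (adjusted p = 0.0375), a call that was lost after scaling (0.26, adjusted p = 0.249) and without replicate 1 or 3 of V-ZHYS or of M-ZHYS (adjusted p up to 0.262). LOC100242358 rose in HSB by 0.31 and in XLS by 0.26 (SE 0.07), which were 0.83 (adjusted p = 1.12e-13) and 0.09 (adjusted p = 0.399) after median-of-ratios scaling. LOC100245726 rose in XG by 0.67 and in CC by 0.46 (SE 0.14), the latter not called without M-CC replicate 3 (adjusted p = 0.0626). LOC100247573 rose in ZHYS by 0.59 and in XG by 0.43 (SE 0.11), which were 0.37 and 0.25 after median-of-ratios scaling. LOC100241187 rose in CC by 0.26, a call lost after scaling (0.07) and without replicate 1 or 2 of V-CC or replicate 1 or 3 of M-CC (adjusted p up to 0.191), and fell in XG by 0.37 (SE 0.09). In HSB LOC100241187 fell by 0.48 and LOC100247573 by 0.45, but after scaling these values were 0.00 and 0.01 and after quantile normalization 0.18 and 0.33. In HSB the median of all genes fell by 0.228 in TPM from V to M and by 0.001 after scaling. The scaled median follows from how the factors are computed, so it is not a check of the scaling.

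The XLS values leaned on V-XLS replicate 2. Replicates 1 and 3, which remain without it, were those closest to M-XLS. A V to M value that shrinks without replicate 2 therefore does not show which of these libraries stands for V. For LOC100263580 the V-XLS replicates had 7.03, 3.08 and 7.35 TPM, and for LOC100245726 they had 2.07, 1.17 and 2.74 TPM, with replicate 2 apart from the other two in both. Without that library LOC100263580 rose in XLS from E to V by 0.73 (adjusted p = 1.54e-09) and its V to M value was 0.16 (adjusted p = 0.351). Its E to V call was lost, on the other hand, without V-XLS replicate 1 or replicate 3 (adjusted p = 0.147 and 0.186), which leave replicate 2 in. LOC100259720 fell in XLS from E to V by 1.65 (adjusted p = 1.96e-13) without replicate 2 and had a V to M value of -0.18 (adjusted p = 0.588), a call that was also lost without M-XLS replicate 1 (adjusted p = 0.0816). LOC100242358 rose from E to V by 0.20 (adjusted p = 0.0269) and had a V to M value of 0.21 (adjusted p = 0.129). LOC100243946 rose from E to V by 2.11 and had a V to M value of 0.06. LOC100245726 fell from E to V by 0.48 (adjusted p = 0.0021) and had a V to M value of 0.03, and LOC100247573 had values of -0.10 and -0.13, not called. In the mean over the zones, 7, 6 and 6 of the 7 genes were called in the 3 comparisons with and without this library.

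The zones differed at every stage for all 7 genes by a limma F test at an adjusted p below 0.05, and so did 83.1% of all genes at E, 80.2% at V and 65.6% at M. The stage by zone test was passed by all 7 genes and by 85.7% of all genes, so these counts are close to the background. At M the adjusted p was between 0.0171 and 0.0351 for LOC100242358, LOC100263580, LOC100241187 and LOC100245726, and it passed 0.05 for each of them without 1 to 9 single libraries (highest 0.213, for LOC100242358 without M-CC replicate 2). After median-of-ratios scaling the test was no longer passed by LOC100263580 at V (adjusted p = 0.0645) and M (0.398), by LOC100241187 at V (0.342), and by LOC100259720 (0.203) and LOC100245726 (0.0563) at E.

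At E the zones ran in much the same order for several genes. E-HJZ was the lowest group of the stage for 5 of the 7 genes and E-HSB the highest for 5 of the 7. After scaling, E-HJZ was the lowest for 1 and E-HSB the highest for 2. The coefficient of variation over the 6 zone means at E went from 38.9% to 13.6% for LOC100259720, from 37.2% to 15.8% for LOC100263580 and from 26.5% to 13.5% for LOC100245726 under scaling. For LOC100242358 it went from 25.9% to 30.5%. The order of the zones at E thus moved with the composition of the libraries, which ran from a factor of 0.695 in E-HJZ to 1.44 in E-HSB, and its part in the differences between zones was not tested beyond this scaling.

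**Figure D3:**
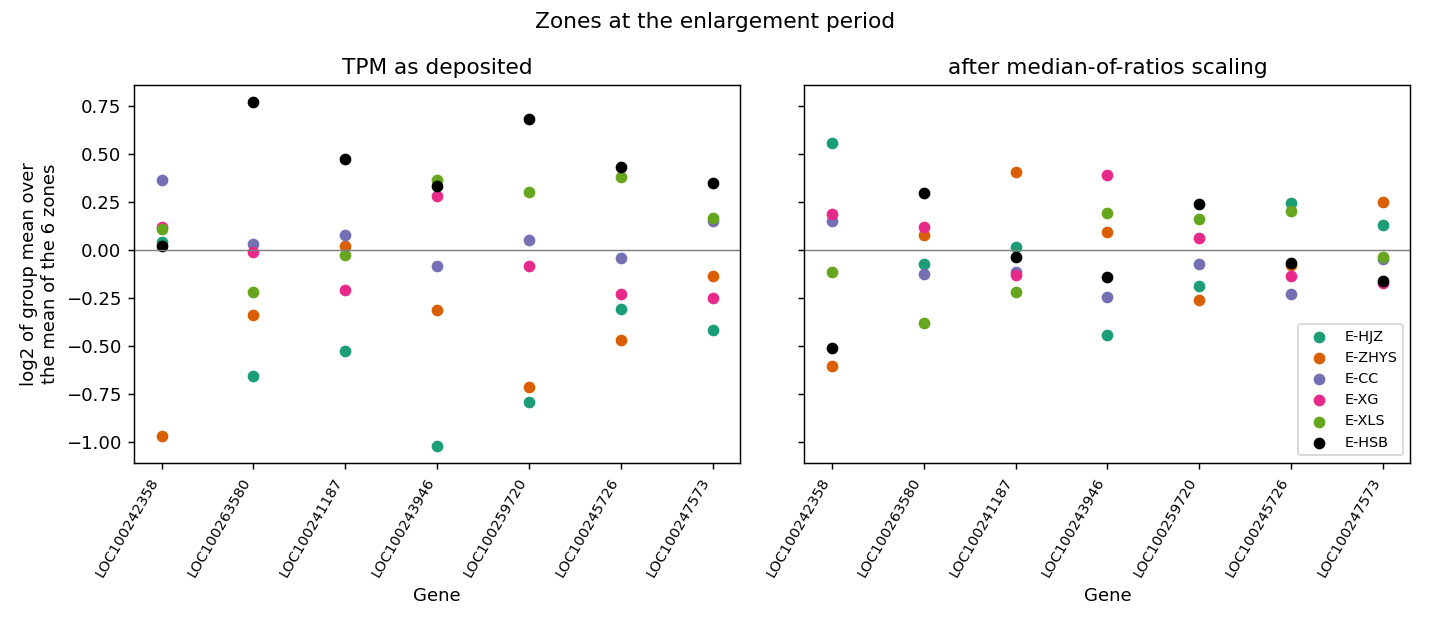
Log2 of each E group mean over the mean of the 6 zones (vertical axis) for the 7 genes (horizontal axis), in TPM as deposited and after median-of-ratios scaling; each point is 1 zone. E-ZHYS is the lowest point of LOC100242358 in both, while E-HJZ is the lowest for 5 genes in TPM and for 1 after scaling.

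A few zone differences exceeded 1 on the log2 scale in TPM, and all of those given here stayed past the test under scaling. They were picked by their size in TPM, so a difference that passed 1 only after scaling would be missed. The V to M change of LOC100243946 in HSB differed from that of the other zones by 0.80 in TPM and is not among them. Its scaled means in HSB were 56.09 ± 9.35 at V and 179.03 ± 7.47 at M (SD, n = 3). E-ZHYS, with 45.91 ± 1.46 TPM of LOC100242358 against zone means of 91.00 to 115.5 TPM in the other E groups (SD, n = 3), was lower than the mean of the other zones by 1.08 (SE 0.06, adjusted p = 2.91e-18), a difference that 2.92% of all genes showed in that direction. After scaling it was -0.65, and the E-ZHYS mean (59.28 ± 2.48) was then close to that of E-HSB (63.1 ± 4.89). The E to V change of this gene was 1.04 larger in ZHYS than in the other zones (SE 0.08, adjusted p = 1.36e-13), past that limit for 5.94% of genes, and 0.79 after scaling. E-HJZ, with 11.30 ± 2.04 TPM of LOC100243946, was lower than the other E groups by 1.07 (SE 0.12, adjusted p = 1.03e-09), as were 9.23% of genes, and the difference was -0.48 after scaling. The scaled mean of E-HJZ (16.23 ± 2.44) was close to that of E-CC (18.62 ± 1.12). The E to V rise of LOC100243946 was 1.34 larger in HJZ (SE 0.17, adjusted p = 3.13e-08), past that limit for 11.1% of genes, and 0.73 after scaling. In HSB this rise differed by -1.01 (SE 0.17, adjusted p = 8.13e-06) from that of the other zones, past that limit for 4.58% of genes, and by -0.88 after scaling and -0.64 after quantile normalization.

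LOC100259720 showed the other large differences. V-HSB, with 4.45 ± 0.68 TPM, was higher than the other V groups by 1.08 (SE 0.13, adjusted p = 8.27e-10), as were 15.0% of genes, and by 0.72 after scaling and 0.29 (adjusted p = 0.0486) after quantile normalization. Its V to M change differed by -1.67 in HSB from that of the other zones (SE 0.18, adjusted p = 1.09e-10), past that limit for 22.8% of genes, and by -1.20 after scaling and -0.80 after quantile normalization. In ZHYS the V to M change differed by 1.14 (SE 0.18, adjusted p = 2.89e-06), past that limit for 4.48% of genes, and by 1.01 after scaling. V-HSB was also the V group with the lowest level of all 3 ripening markers, with 15100 TPM of GRIP4, 5860 TPM of GRIP61 and 661 TPM of GRIP22. It had the highest V level of ANR, an enzyme of proanthocyanidin synthesis, at 30.3 TPM, and of LAR1, at 1.92 TPM. The third seed marker, MYBPA1, was at 64.7 TPM in V-HSB, below the highest V group at 73.1 TPM. V-HSB had a mean scaling factor of 1.29, and the part of these markers in the values of HSB was not tested.

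Summed over the 3 hexokinase genes and the 4 fructokinase genes alone, hexokinase transcript had 103 TPM at E, 131 at V and 140 at M, and fructokinase transcript had 37.4, 111 and 151 TPM. The ratio of the fructokinase to the hexokinase sum was 0.375 ± 0.109 at E, 0.853 ± 0.0908 at V and 1.07 ± 0.168 at M (SD, n = 6 zones). It was above 1 in 0 of 18 libraries at E, in 1 of 18 at V and in 12 of 18 at M. The single V library above 1 was a V-XLS replicate at 1.27, and the V-XLS mean went from 0.992 to 1.12 without replicate 2. A ratio within a library does not move with the scaling of that library. The lowest group was E-HJZ at 0.214 ± 0.0219, and the highest was M-ZHYS at 1.31 ± 0.0655 (SD, n = 3). M-CC stood apart from the other M groups, at 0.829 ± 0.0324, with the lowest LOC100243946 level of the stage (93.97 TPM).

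**Figure D4:**
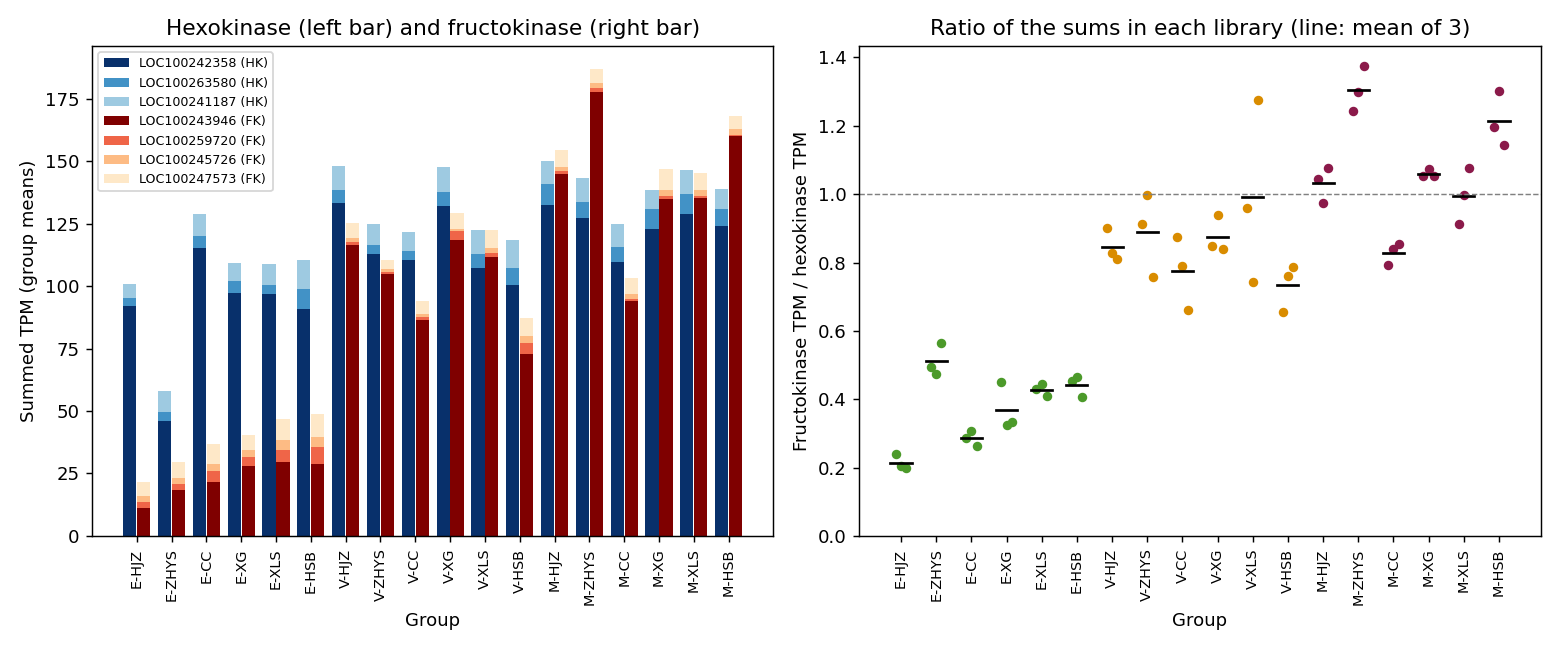
Left, summed TPM (vertical axis, from 0) of the hexokinase and the fructokinase genes in the 18 groups, split by gene; right, the ratio of the sums in each library, with lines for the means of 3 replicates. The ratio lies between 0.200 and 0.565 at E and between 0.792 and 1.37 at M.

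Across the 18 group means the 2 abundant genes had a Pearson correlation of 0.70 in log2(TPM + 1), and LOC100243946 and LOC100259720 had one of -0.68. These correlations are across groups that share stages and library composition and are given as a description. Within E alone (6 groups), LOC100243946 and LOC100259720 had a correlation of 0.84, the opposite sign to that over all groups. By the same measure, the genes with a group mean of at least 5 TPM most like LOC100243946 were LOC100261124 (0.982), LOC100241637 (0.981) and LOC100267071 (0.980), and 611 genes exceeded 0.9. Those most like LOC100242358 were LOC100250896 (0.941), LOC100264001 (0.935) and LOC100262681 (0.915), and 9 genes exceeded 0.9. LOC100259720 had 410 such genes, led by LOC100264623 (0.968), LOC100853229 (0.968) and LOC100258368 (0.966). LOC100263580 had 139, led by LOC100246918 (0.953), LOC100241961 (0.951) and LOC100268065 (0.951). LOC100247573 had 17, led by LOC100258631 (0.959), LOC100244926 (0.933) and LOC104877313 (0.932). LOC100245726 had 12, led by LOC100853702 (0.931), LOC100253241 (0.923) and LOC100853557 (0.918), and LOC100241187 had 9, led by LOC100241013 (0.938), LOC100853033 (0.928) and LOC100244760 (0.925). In the RefSeq gene table, which holds 6 of the 7 genes, LOC100242358 and LOC100243946 lie on the same chromosome with 21 genes between them, and no coordinates are given because this table is of another source than the reference the study links.

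Other genes of hexose supply could be listed by symbol only, which gave 12 genes: the sucrose transporters VVSUC11, VVSUC27 and SUC12, the hexose transporters HT2 to HT6, the tonoplast transporters TMT2 and TMT3, the cell wall invertase CWINV and the hexokinase HXK2. Of these, 6 rose and 3 fell between E and V, 3 rose and 6 fell from V to M, and 7 rose and 5 fell from E to M, with medians of 0.15, -0.09 and 0.32. Over all genes 30.8% rose and 42.4% fell in the first of these comparisons, 35.0% and 28.4% in the next and 38.1% and 42.1% in the last, with medians of -0.02, 0.005 and -0.008. VVSUC27, which loads sucrose into cells and had the highest mean of the list (92.8 TPM), fell from 209 to 62.5 and 6.67 TPM over the stages, and by 4.64 (SE 0.11, adjusted p = 1.11e-32, limma) from E to M. It was at 311 ± 68.0 TPM in V-HSB and between 7.97 and 23.7 TPM in the other V groups, and HSB was also the zone with the highest LOC100259720 at V. Over the 18 groups VVSUC27 had a correlation of 0.87 with LOC100259720 and of -0.84 with LOC100243946. CWINV, which splits sucrose in the cell wall, had the largest E to M rise of the list on the log2 scale, with a value above that of HT5 (2.89, SE 0.22) by less than that SE. It went from 6.64 to 14.1 and 57.3 TPM and rose by 0.95 (SE 0.18, adjusted p = 8.17e-06) from E to V and by 2.05 (SE 0.18, adjusted p = 7.03e-13) from V to M. HXK2, named here because it is a hexokinase by symbol, had 7.34, 7.22 and 4.13 TPM and fell by 0.63 (SE 0.06, adjusted p = 1.14e-11) from V to M.

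**Figure D5:**
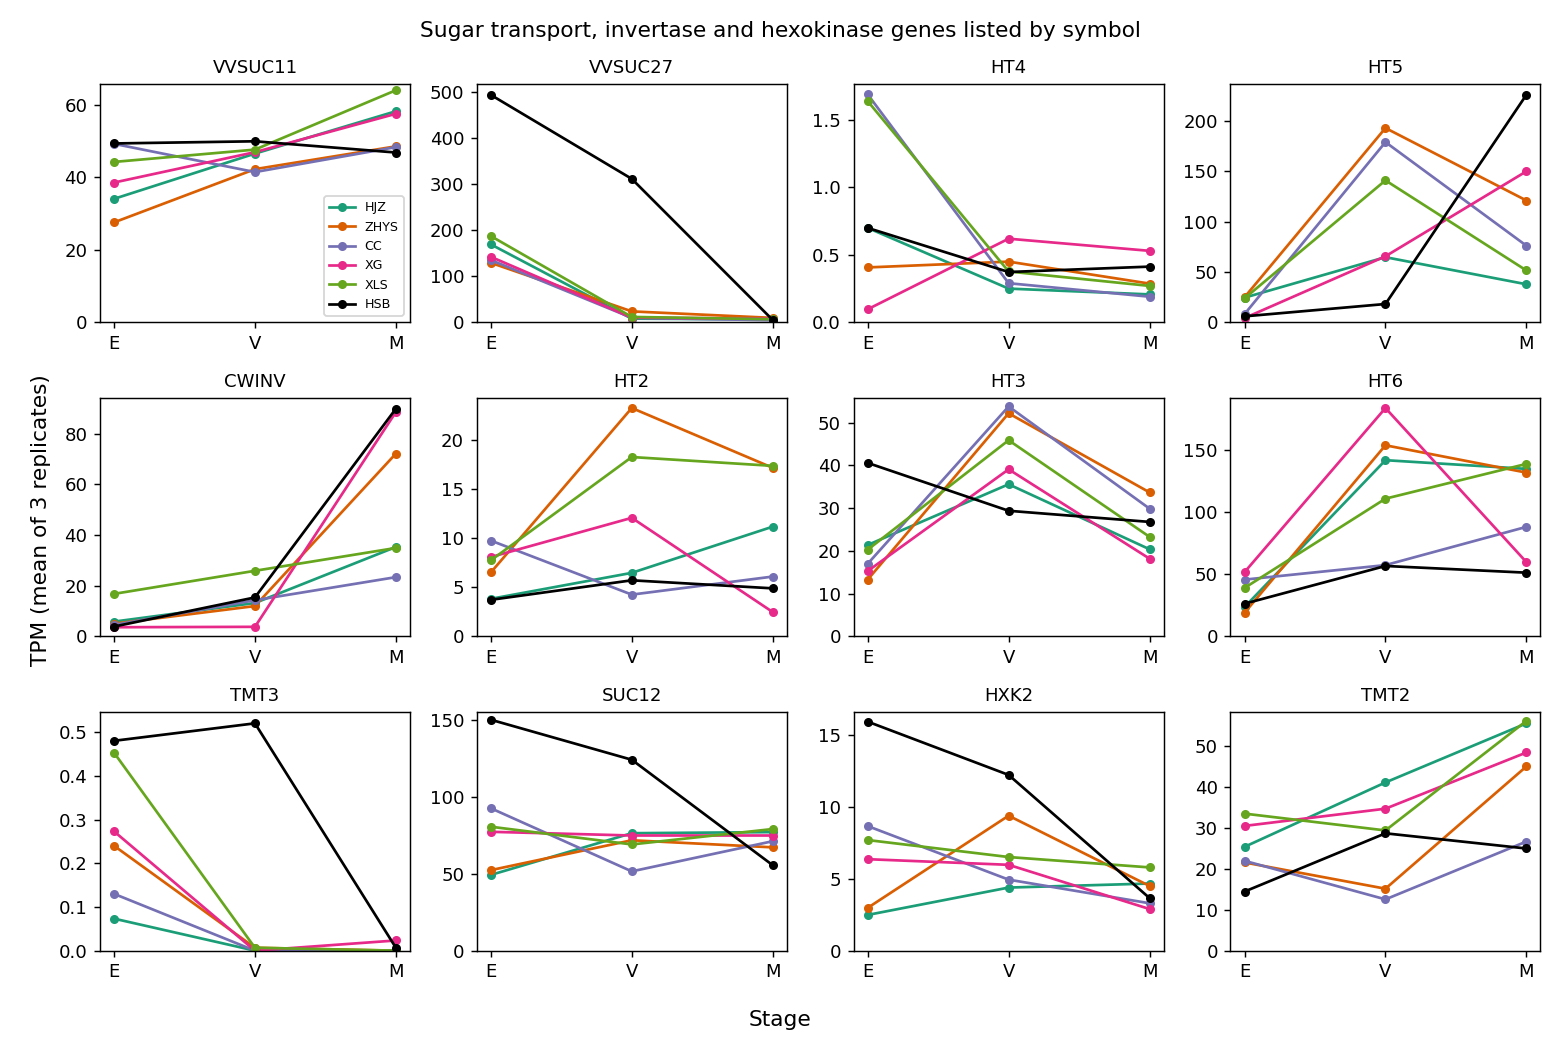
TPM (vertical axes, from 0, means of 3 replicates) of the 12 listed genes at stages E, V and M (horizontal axes), with 1 line per zone. VVSUC27 is at 493 TPM in E-HSB and 311 TPM in V-HSB and at 5.06 TPM in M-HSB, while CWINV is highest at M in HSB (89.8 TPM).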

How the data were processed

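RNA-seq was done on an Illumina HiSeq-2000. The authors aligned clean reads with HISAT2, counted fragments with featureCounts and deposited TPM values rounded to 2 decimals, with the grapevine files of Ensembl Plants release 23 linked as reference, while tool versions and an assembly name are not given in the sources used here. TPM keeps no depth, so the precision of a value is known only from its replicates. All 54 libraries were grouped by their labels, and 0 columns were left out. Stage and zone differences were tested in R 4.3.3 by limma (version 3.58.1), fitted to log2(TPM + 1) as 18 group means (36 residual degrees of freedom) for the 24648 genes above 0 in at least 1 library, with a variance trend and Benjamini-Hochberg adjustment over these genes. A change was called at an adjusted p below 0.05. The fit was also run on simulated data with independent normal noise and seeded stage changes. These simulated data held no zone differences and no shifts in library composition, so the run does not cover those features of the real libraries. The named genes are the 7 genes, for each the 3 genes with the highest correlation, and of the symbol list the most abundant gene and the largest called change in each direction. Genes and lists were chosen with earlier results of these data known, and the comparison of 1 zone with the others within a stage was added after its values were seen. The alternatives were a pseudocount of 0.1, quantile normalization, a minimum mean of 1 TPM, median-of-ratios scaling, a replicate block, leaving out each library or HSB, zones as units and a fit of 2 groups. Protein and promoter sequences were not used here. Other values used Python 3.11.15, numpy 2.4.6 and pandas 2.3.3, and matplotlib 3.10.9 drew the figures.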

Additional observations from a re-analysis of the deposited data

Results flagged for a closer look

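The stage change differed between zones for all 7 genes by the stage by zone F test in limma, with adjusted p of 1.34e-14 for LOC100242358, 9.76e-07 for LOC100263580, 1.03e-08 for LOC100241187, 3.74e-09 for LOC100243946, 4.62e-11 for LOC100259720, 0.017 for LOC100245726 and 9.96e-09 for LOC100247573. As 85.7% of all genes passed this test, it does not single these genes out.

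In TPM, changes of 1 zone that differed from the mean of the other zones by more than 1 on the log2 scale were those of LOC100242358 in ZHYS from E to V (1.04), of LOC100243946 from E to V in HJZ (1.34) and in HSB (-1.01), and of LOC100259720 from V to M in ZHYS (1.14) and in HSB (-1.67).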

How the results depend on the processing

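With a pseudocount of 0.1, the genes past an adjusted p of 0.05 and the fold limit numbered 5811 from E to V, 2111 from V to M and 8441 from E to M, against 3330, 880 and 5379 with a pseudocount of 1. With zones as units, 2 of the 7 genes were called from E to V and 0 from V to M, against 7 and 6. Of all genes, 197 were called from V to M in that fit, and 113 also passed the fold limit. Among the changes called within zones and the means over the zones, the values that turned in sign or reached 0 did so under other scalings. After median-of-ratios scaling these were LOC100241187 in CC from E to V (0.29) and in HSB from V to M (0.00) and LOC100247573 in HSB from V to M (0.01). After quantile normalization they were LOC100242358 in HJZ from E to V (-0.16), LOC100241187 in CC from E to V (0.40) and in HSB from V to M (0.18), LOC100247573 in CC from E to V (0.07) and in HSB from V to M (0.33), and the E to M means of LOC100245726 (0.00) and LOC100247573 (0.02). Changes within zones that were not called in TPM are outside this list, and some of them turned as well. In CC from E to V, LOC100242358 (-0.06 in TPM) had scaled means of 99.94 and 142.62. LOC100263580 (-0.28 in TPM) had 4.05 and 4.76 in the same step. In CC from V to M, LOC100243946 (0.12 in TPM) had scaled means of 111.49 and 104.56. The cause was not tested. Of 49 called changes within zones, 10 others lost their call after median-of-ratios scaling, 8 others after quantile normalization and 8 where just the 2 groups concerned were fitted. The differences among zones in 1 stage were no longer called after quantile normalization for LOC100259720 at E (adjusted p = 0.169), LOC100245726 at V (0.0512) and LOC100242358 and LOC100263580 at M (0.0926 and 0.312). Leaving out 1 library left 7 genes called from E to V and 6 to 7 in the other comparisons, with 730 to 987 of all genes past the fold limit from V to M. With the replicate number as a block, 7, 6 and 6 of the 7 genes were called, as without it, and no call on a single gene changed. Same-numbered libraries of different groups had a median correlation of 0.0108 of their deviations (lowest -0.422), against -0.00834 for libraries of different number. Correlations above 0.1 were seen in 84 of 459 same-numbered pairs and in 128 of 918 others. These medians show no pairing by number over the whole set, but they do not test it within single zones or stages. TPM keeps no read counts, so genes of 1 to 3 TPM, such as LOC100245726 and LOC100259720, are limited in precision to an extent that only their replicates show.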
